A study of Mus musculus with 6 samples.

Results

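The genes described here encode the Fc gamma receptors of the mouse (Fcgr1, Fcgr2b, Fcgr3 and Fcgr4), the chain through which the activating receptors signal (Fcer1g) and the neonatal Fc receptor (Fcgrt). These 6 genes were chosen by symbol from the 52550 genes of the deposited table, and all 6 had enough reads to be tested. RNA was sequenced from 3 libraries of MSR1 KO and 3 libraries of MSR1 WT bone marrow-derived macrophages (BMDMs) of C57BL/6 mice, which raises the question of how macrophages that lack macrophage scavenger receptor 1 (MSR1) differ from macrophages that have it. Bone marrow cells of both genotypes were grown for 7 days with M-CSF (macrophage colony-stimulating factor) at 25 ng/ml and then shared a transwell with bone marrow mesenchymal stem cells (BMSCs) for 48 h, so every library came from co-cultured cells and there was no library of macrophages alone. The age and sex of the mice and the deleted part of Msr1 were not given in the sources used here. The labels number the libraries 1 to 3 within each genotype without saying whether they came from separate mice, so the p-values measure the spread between these libraries. In bulk RNA, fewer cells of a type and less RNA per cell cannot be told apart.

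Fc gamma receptors bind the constant part of IgG and allow macrophages to take up opsonised particles and to respond to immune complexes. Fcgr1, Fcgr3 and Fcgr4 encode activating receptors, whose ligand-binding chains pair with the Fcer1g chain. That chain carries an immunoreceptor tyrosine-based activation motif (ITAM), which Src family kinases phosphorylate and to which the kinase Syk then binds. Fcgr2b encodes the inhibitory receptor, which carries an immunoreceptor tyrosine-based inhibition motif (ITIM) in its own tail and recruits the phosphatase SHIP (Inpp5d), so a macrophage's response to IgG depends on the balance between the activating receptors and Fcgr2b. Fcgrt pairs with beta-2 microglobulin (B2m) and returns IgG from endosomes to the surface.

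Counts of Msr1 were 2118, 1825 and 2000 under the MSR1 KO label, whereas MSR1 WT gave 7543, 9163 and 9219 (log2 fold change -2.02, adjusted p = 0.00124 by edgeR's quasi-likelihood test), so reads on the targeted gene were lower but present in the libraries labelled MSR1 KO. Depth ranged from 36143518 to 47417448 counts per library. The macrophage markers were present in every library, with 11 of 11 tested and a summed level of 28868 to 30582 CPM (counts per 1000000 counts of the library after TMM scaling) in MSR1 KO against 28914 to 32104 CPM in MSR1 WT. Of these, Mrc1 passed the test and was lower in MSR1 KO (log2 fold change -0.39, adjusted p = 0.0369 by edgeR), a call kept in 1 of the 6 fits with a library left out.

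Fcgr4 and Fcgr1, which encode activating receptors, were higher in MSR1 KO macrophages, by 2.86-fold and 2.20-fold, and were the members that passed the test. Fcer1g was 1.20-fold higher and just missed it. Fcgr3, Fcgr2b and Fcgrt did not pass it, and their libraries overlapped between the genotypes. Thus 2 of the 6 members were called higher and 0 lower at an adjusted p under 0.05 in edgeR's quasi-likelihood test, where 2.25% of the 16402 tested genes were called higher, 2.66% lower and 4.91% in either direction. With the replicate number as a block, 0 members were called. The study defined a differentially expressed gene by a fold change above 1.5 and p under 0.05, taken here as the unadjusted p. By that definition Fcgr1 and Fcgr4 were called, against 3.59% of tested genes higher, 5.05% lower and 8.64% in either direction. The MSR1 KO libraries all lay above the MSR1 WT libraries for 3 members (Fcgr1, Fcgr4 and Fcer1g), a pattern that 12.1% of tested genes showed.

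**Figure D1:**
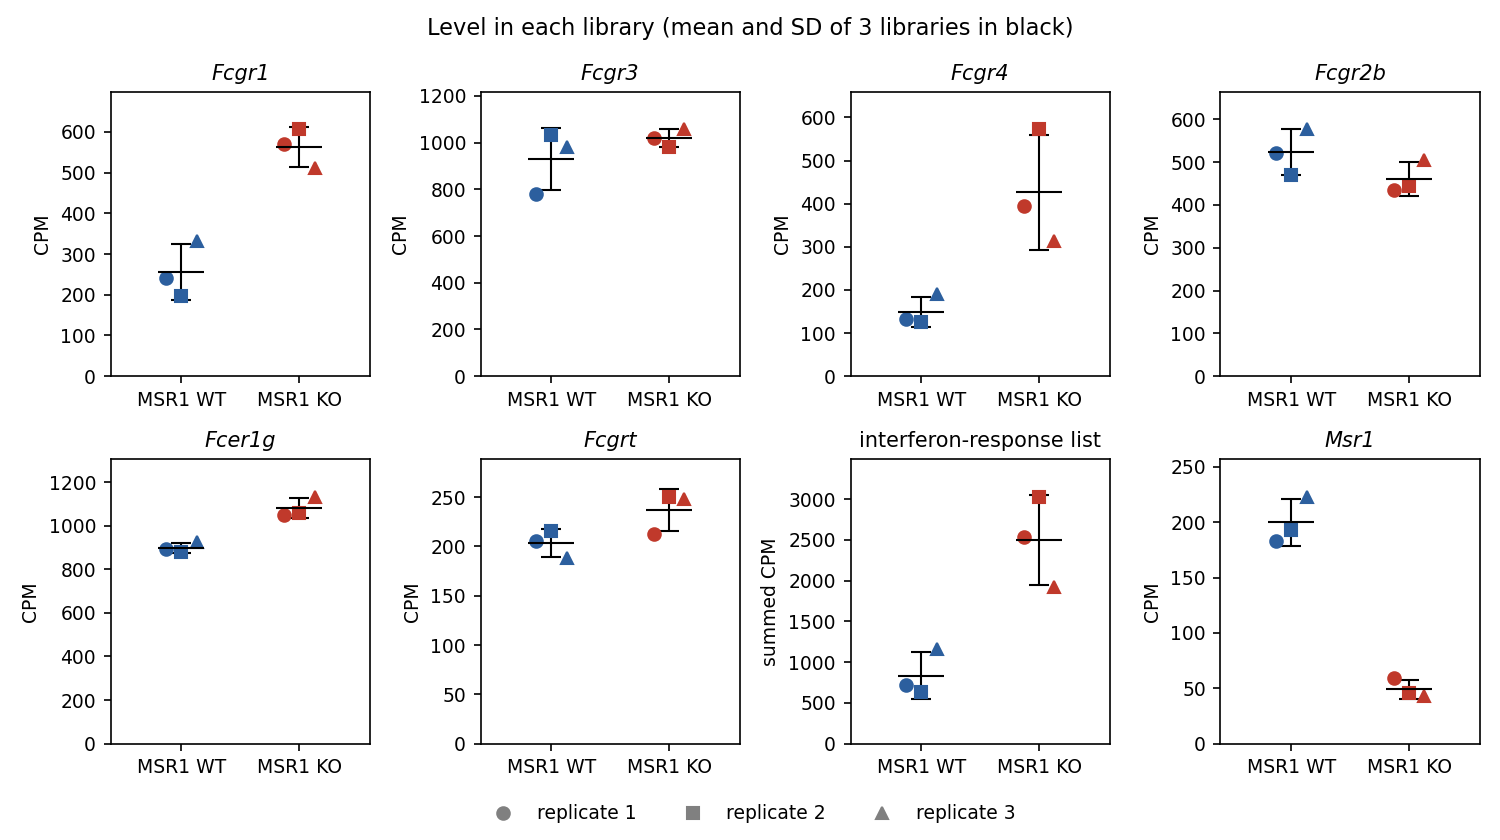
Level of each Fc receptor gene, of the summed interferon-response list and of Msr1 in each library, as CPM on a linear axis from 0, with MSR1 WT in blue and MSR1 KO in red. Marker shape gives the replicate number, and black marks give the mean and SD of 3 libraries. The MSR1 KO libraries sit apart from and above the MSR1 WT libraries for Fcgr1, Fcgr4, Fcer1g and the interferon-response list, and overlap them for Fcgr3, Fcgr2b and Fcgrt.

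Fcgr4 (ENSMUSG00000059089.4) lies on chromosome 1 from 171018920 to 171029761 (GRCm38, plus strand) and encodes an activating receptor for the IgG2 subclasses. Libraries of MSR1 KO macrophages held 14165, 22817 and 14537 counts of it, or 394, 573 and 313 CPM, and those of MSR1 WT macrophages 5453, 5973 and 7828 counts, or 132, 126 and 189 CPM. The lowest MSR1 KO library was thus above the highest MSR1 WT library, and MSR1 KO replicate 2 stood highest. The MSR1 KO mean was 427 ± 133 CPM and the MSR1 WT mean 149 ± 35.03 CPM (SD, n = 3 each). The log2 fold change was 1.52 with a standard error of 0.23 and an adjusted p of 0.0183 by edgeR, and its 95% interval ran from 0.98 to 2.06. With single libraries left out it stayed between 1.24 and 1.72, but the adjusted p rose to 0.0590 without MSR1 KO replicate 1, and it was 0.0902 and 0.0631 when replicate 1 or replicate 2 of MSR1 WT was dropped.

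Fcgr1 (ENSMUSG00000015947.10) lies on chromosome 3 from 96282909 to 96293969 (GRCm38, minus strand), apart from the other receptor genes, and encodes the high-affinity receptor, which binds monomeric IgG. The MSR1 KO libraries had 20523, 24168 and 23726 counts for it (571, 607 and 510 CPM), and the MSR1 WT libraries had 9922, 9288 and 13677 counts (241, 196 and 331 CPM). The groups did not overlap, and MSR1 WT replicate 3 was the highest of its group for Fcgr1 as it was for Fcgr4. The MSR1 KO mean was 563 ± 48.8 CPM and the MSR1 WT mean 256 ± 68.9 CPM (SD, n = 3 each). The log2 fold change was 1.14 with a standard error of 0.17 (95% interval 0.74 to 1.54, adjusted p = 0.0182 by edgeR). Leaving out single libraries gave values from 0.98 to 1.37, and the call was lost without MSR1 KO replicate 1 (adjusted p = 0.0624) or MSR1 WT replicate 1 (adjusted p = 0.0883).

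Fcgr3 (ENSMUSG00000059498.13, chromosome 1 from 171051174 to 171064935, GRCm38, minus strand) encodes a low-affinity activating receptor for immune complexes and had the highest counts of the 4 receptor genes. Its counts were 36683, 39087 and 49164 in MSR1 KO (1021, 982 and 1058 CPM) and 32108, 48939 and 40549 in MSR1 WT (779, 1032 and 982 CPM). MSR1 WT replicate 1 was lowest, and the other 5 libraries lay within a narrow range in which the genotypes overlapped. The log2 fold change was 0.13 with a standard error of 0.10 (95% interval -0.11 to 0.37, adjusted p = 0.561 by edgeR), an interval that excludes changes of the size measured for Fcgr4 and Fcgr1.

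Fcgr2b (ENSMUSG00000026656.15, chromosome 1 from 170958617 to 170976547, GRCm38, minus strand) encodes the inhibitory receptor. Counts were 15585, 17643 and 23496 for MSR1 KO (434, 443 and 506 CPM) compared with 21529, 22288 and 23850 for MSR1 WT (522, 470 and 577 CPM). MSR1 KO replicate 3 lay above MSR1 WT replicate 2, so the groups overlapped. The log2 fold change was -0.18 with a standard error of 0.095 (95% interval -0.40 to 0.036, adjusted p = 0.354 by edgeR). An antisense gene, Gm38204, covers 2.68% of the exon bases of Fcgr2b on the other strand, and it had 14 counts over all 6 libraries.

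Fcer1g (ENSMUSG00000058715.11, chromosome 1 from 171229572 to 171234365, GRCm38, minus strand) encodes the shared signalling chain. Counts were 37679, 42093 and 52689 in MSR1 KO (1049, 1057 and 1134 CPM) and 36773, 41707 and 38195 in MSR1 WT (892, 879 and 925 CPM). The groups did not overlap, and the spread within each was small, with means of 1080 ± 46.6 and 899 ± 23.5 CPM (SD, n = 3 each). The log2 fold change was 0.27 with a standard error of 0.062 (95% interval 0.12 to 0.41), and the adjusted p was 0.0502 by edgeR. Fcer1g passed in 3 alternatives, with DESeq2's size factors in edgeR (adjusted p = 0.0463), with DESeq2's Wald test (adjusted p = 0.00921) and with at least 10 counts required in every library (adjusted p = 0.0477). It did not pass in the other 9, among them scaling by library size alone (0.0640), no filter (0.0704) and the 6 fits with a library left out (0.0831 to 0.179).

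Fcgrt (ENSMUSG00000003420.8, chromosome 7 from 45092990 to 45103851, GRCm38, minus strand) had 7630, 9978 and 11549 counts in MSR1 KO (212, 251 and 248 CPM) and 8482, 10258 and 7766 in MSR1 WT (206, 216 and 188 CPM). MSR1 KO replicate 1 lay below MSR1 WT replicate 2, so the groups overlapped. The log2 fold change was 0.22 with a standard error of 0.089 (95% interval 0.018 to 0.43), with an unadjusted p of 0.0366 and an adjusted p of 0.223 by edgeR. B2m, its light chain, was at 5243 CPM in MSR1 KO and 4062 CPM in MSR1 WT (log2 fold change 0.37, adjusted p = 0.0738 by edgeR), and its groups did not overlap.

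**Figure D2:**
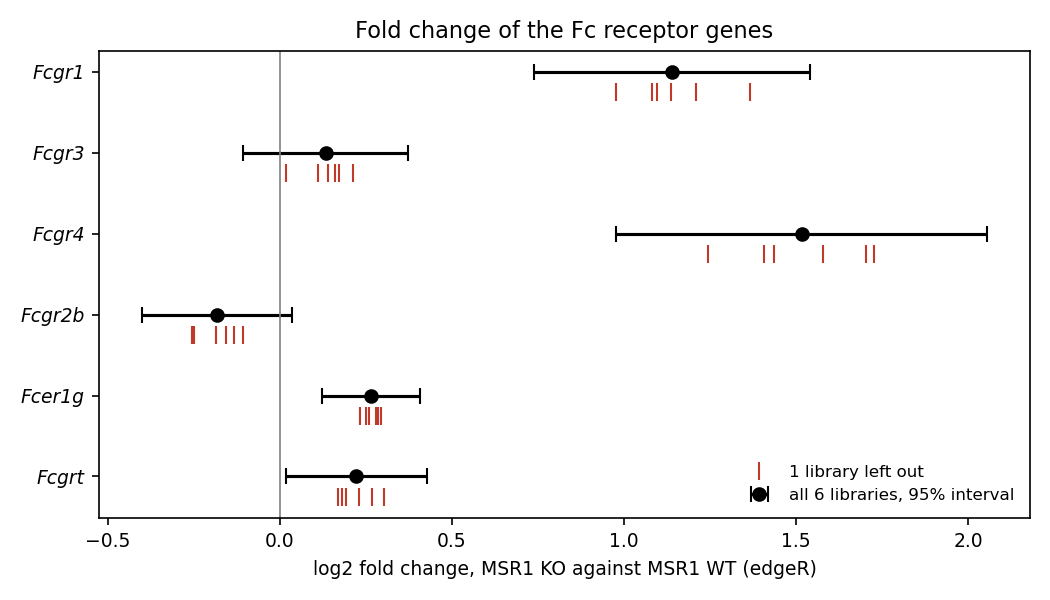
Log2 fold change of each Fc receptor gene in MSR1 KO against MSR1 WT macrophages, from edgeR. Black points and bars give the estimate from 6 libraries with its 95% interval, and red ticks give the estimates with 1 library left out. Fcgr4 at 1.52 and Fcgr1 at 1.14 lie clear of the other members, and the interval of Fcgr2b and that of Fcgr3 cross 0.

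Counts per kb of exon place the members on a common scale of level. In MSR1 KO macrophages the order was Fcer1g (1236 ± 53.4 CPM per kb, SD, n = 3), Fcgr3 (588 ± 21.9), Fcgr4 (340 ± 106), Fcgr1 (217 ± 18.9), Fcgrt (113 ± 10.2) and Fcgr2b (79.6 ± 6.73), with no overlap of libraries between neighbours in that order. In MSR1 WT macrophages Fcer1g (1028 ± 26.9 CPM per kb) and Fcgr3 (536 ± 77.1) again came first and stood apart. Fcgr4 (119 ± 27.9), Fcgr1 (98.8 ± 26.6), Fcgrt (96.7 ± 6.78) and Fcgr2b (90.3 ± 9.29) then followed, each overlapping the next. The place of Fcgr2b depends on the length used, since its exons span 5790 bases over all transcripts and 3544 bases in the longest one. With the longest transcript, Fcgr2b came after Fcer1g and Fcgr3 in MSR1 WT, at 148 ± 15.2 CPM per kb and overlapped Fcgrt in MSR1 KO. By level per kb averaged over the libraries, Fcer1g ranked 23 and Fcgr3 ranked 54 among 16368 genes, whereas Fcgr2b, the lowest member, ranked 499.

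The balance between activating and inhibitory receptors was computed within each library as the ratio of counts per kb to those of Fcgr2b, which does not depend on scaling between libraries. Fcgr4 stood at 4.19, 5.96 and 2.85 times Fcgr2b in the MSR1 KO libraries and at 1.17, 1.24 and 1.51 times in the MSR1 WT libraries, so the ratio was 3.20-fold higher in MSR1 KO and the groups did not overlap. For Fcgr1 the ratio was 2.95, 3.06 and 2.26 in MSR1 KO against 1.03, 0.932 and 1.28 in MSR1 WT, a 2.55-fold difference, again without overlap. The size of a ratio of single genes depends on the exon lengths used, but its fold difference between the genotypes does not. For Fcgr3 the ratio was 7.85, 7.39 and 6.98 against 4.97, 7.32 and 5.67, and the groups overlapped. The 3 activating receptors together stood at 15.0, 16.4 and 12.1 times Fcgr2b in MSR1 KO and at 7.17, 9.49 and 8.47 times in MSR1 WT, which is 0.79 apart on the log2 scale, or 0.72 with the longest transcript as length. That difference was 1.54 with Fcgr3 left out of the sum and 0.53 with Fcgr4 left out. No p is given for these ratios, since the members were chosen together.

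**Figure D3:**
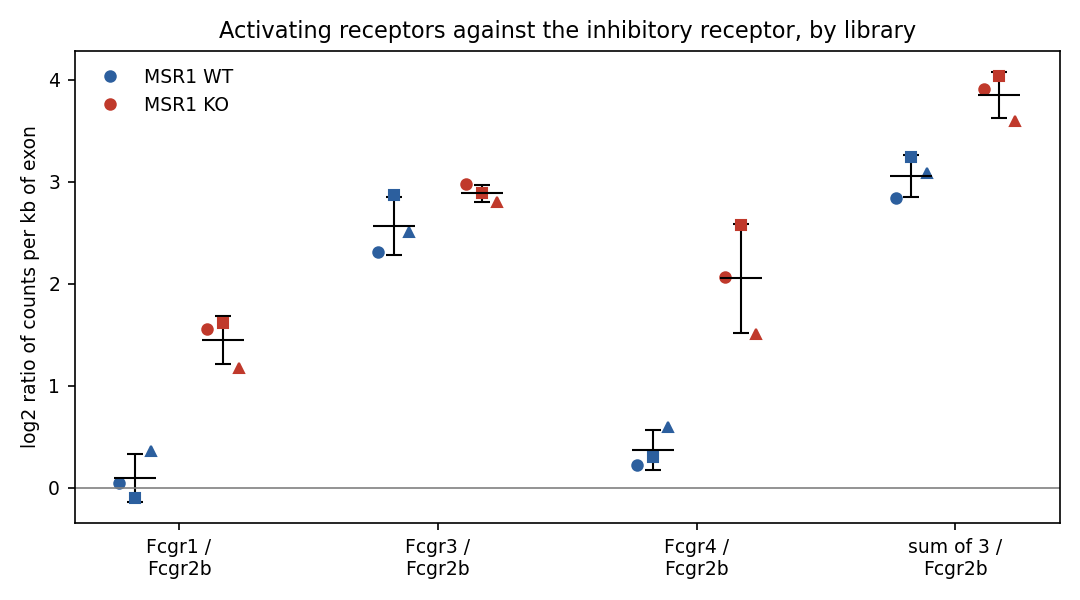
Log2 ratio of counts per kb of exon of each activating receptor gene, and of their sum, to Fcgr2b in each library, with MSR1 WT in blue and MSR1 KO in red (circles, squares and triangles are replicates 1, 2 and 3, and black marks are the mean and SD of 3 libraries). The genotypes separate for Fcgr1, Fcgr4 and the sum (3.85 ± 0.23 against 3.06 ± 0.20) and overlap for Fcgr3.

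As shares of the summed level of the 4 receptor genes per kb, Fcgr3 made up 48.3% ± 5.49 in MSR1 KO and 63.5% ± 5.46 in MSR1 WT (SD, n = 3 each). Fcgr4 made up 27.4% ± 6.31 and 14.0% ± 2.12, and Fcgr1 17.8% ± 0.602 and 11.7% ± 2.47. The inhibitory Fcgr2b made up 6.55% ± 0.981 and 10.8% ± 1.36, while its own level did not pass the test. Set against their signalling chain, the 3 activating receptors stood at 0.936, 1.04 and 0.814 times Fcer1g per kb in MSR1 KO and at 0.634, 0.766 and 0.798 times in MSR1 WT. The groups did not overlap in that ratio with these lengths, but with the longest transcripts, a choice made after seeing the data, MSR1 KO replicate 3 (0.742) lay just below MSR1 WT replicate 3 (0.744).

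Fcgr2b and Fcgr3 are close relatives, and reads that match both could be given to either gene. Their coding sequences were identical at 96.5% of 509 aligned bases (Fcgr2b-201 and Fcgr3-201, GENCODE). The longest run shared base for base spans 129 bases, from coding base 278 to 406 of Fcgr2b-201 and from 263 to 391 of Fcgr3-201, and is shown because reads within it cannot tell the inhibitory from the activating receptor.
Fcgr2b and Fcgr3: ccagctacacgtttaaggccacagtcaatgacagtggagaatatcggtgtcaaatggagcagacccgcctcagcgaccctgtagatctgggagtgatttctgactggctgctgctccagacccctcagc
Over the whole transcripts, 9.58% of the 50-base windows and 2.54% of the 100-base windows of Fcgr3 also occur in Fcgr2b, and no window of 150 bases does. For Fcgr2b, 4.38% of the 50-base windows and 1.4% of the 100-base windows occur in other genes. These include Fcgr3 and genes that are not Fc receptors. Fcgr1, Fcgr4, Fcer1g and Fcgrt shared no window of these lengths with another gene. Summed counts of Fcgr2b and Fcgr3, of which Fcgr3 held the larger part, were 0.027 apart on the log2 scale (adjusted p = 0.906 by edgeR). Reads that match both Fcgr2b and Fcgr3 cannot move that sum, but it does not cover reads that Fcgr2b shares with other genes.

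The promoters of the receptor genes are shown because Fcgr1 and Fcgr4, on different chromosomes, were both higher. The RefSeq sequences (GRCm38.p6) run from 250 bases before to 50 bases after a RefSeq start of each gene, and all 6 members had an entry. RefSeq starts can differ from those of the GENCODE positions given above. The windows of Fcgr3 and Fcgr2b lie wholly inside the GENCODE span of the gene, so bases before the GENCODE start were not searched for these genes. They were searched on both strands for TTCNNNGAA (the gamma-activated site), the core of the interferon-stimulated response element and GAGGAA (a core of the site bound by PU.1, the product of Spi1), and capitals mark the matches. The windows are chr3:96293920-96294219 (minus strand) for Fcgr1, chr1:171018676-171018975 (plus strand) for Fcgr4, chr1:171059354-171059653 (minus strand) for Fcgr3 and chr1:170976022-170976321 (minus strand) for Fcgr2b.
Fcgr1: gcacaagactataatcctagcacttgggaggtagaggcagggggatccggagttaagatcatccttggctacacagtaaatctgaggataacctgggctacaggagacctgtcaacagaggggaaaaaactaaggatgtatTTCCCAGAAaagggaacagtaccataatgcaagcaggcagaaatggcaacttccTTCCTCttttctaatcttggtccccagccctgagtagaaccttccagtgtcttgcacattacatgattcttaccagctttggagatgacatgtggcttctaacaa
Fcgr4: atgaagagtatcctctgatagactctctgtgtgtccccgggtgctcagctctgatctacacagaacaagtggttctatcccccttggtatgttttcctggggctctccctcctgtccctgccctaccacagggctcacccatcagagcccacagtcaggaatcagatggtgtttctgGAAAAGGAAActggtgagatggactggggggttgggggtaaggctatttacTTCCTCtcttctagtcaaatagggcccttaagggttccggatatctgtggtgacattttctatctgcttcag
Fcgr3: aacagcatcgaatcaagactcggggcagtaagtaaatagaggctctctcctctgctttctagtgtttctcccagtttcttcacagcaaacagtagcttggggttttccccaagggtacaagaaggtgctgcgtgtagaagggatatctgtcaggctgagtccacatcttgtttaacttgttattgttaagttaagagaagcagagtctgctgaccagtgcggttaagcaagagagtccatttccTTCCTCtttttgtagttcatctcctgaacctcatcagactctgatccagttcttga
Fcgr2b: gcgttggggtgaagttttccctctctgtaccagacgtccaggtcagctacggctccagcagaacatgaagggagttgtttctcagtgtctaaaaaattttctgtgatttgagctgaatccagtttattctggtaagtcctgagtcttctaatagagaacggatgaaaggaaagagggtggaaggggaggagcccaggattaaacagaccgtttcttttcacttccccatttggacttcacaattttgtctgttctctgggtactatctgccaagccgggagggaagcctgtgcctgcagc
Fcgr1 held 1 match to the gamma-activated site, TTCCCAGAA, from position -109 before the start, and 8.3% of 32851 RefSeq promoters held this motif. Fcgr4 held none of it but 1 match to the response element, GAAAAGGAAA, from position -73, a motif in 3.44% of promoters. The PU.1 core, in 28.3% of promoters, was read as TTCCTC from the other strand in Fcgr1 at -55, in Fcgr4 at -22 and in Fcgr3 at -6. None of the matches overlapped another motif, and none of the motifs was found in the windows of Fcgr2b, Fcer1g and Fcgrt. A second RefSeq start of Fcgr3 held the same match at -15. These matches are descriptions of the letters and no measure of binding.

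The libraries were ordered alike by Fcgr1, by Fcgr4 and by the summed level of interferon-response genes. The 14 interferon-response genes, a list whose genes had already been seen among the changed genes of these libraries, gave summed levels of 2536, 3031 and 1922 CPM in MSR1 KO and 715, 629 and 1164 CPM in MSR1 WT. Ordered from high to low, the libraries ran KO replicates 2, 1 and 3 and then WT replicates 3, 1 and 2 for this sum, for Fcgr1 and for Fcgr4. The order differed for each of the other 4 members. Single genes of the list varied, since Gbp2 and Ifit2 followed the order of the sum, whereas Irf7, Ifit3 and Rsad2 did not. Of the 14 genes, 11 were called higher and 0 lower by edgeR, with a median log2 fold change of 1.54 against -0.0023 over all tested genes. Gbp2, a guanylate-binding protein, reached a log2 fold change of 3.04, and Ifit2, an interferon-induced protein, 1.54. The MSR1 KO libraries were far apart for Gbp2, at 260, 598 and 67.6 CPM, and it was called in 1 of 6 fits with a library left out. Each of the 11 calls was lost in at least 1 of the 6 fits with a library left out, and those fits called from 1 to 11 genes of the list higher. The part of the interferon-response genes in the levels of Fcgr1 and Fcgr4 was not tested.

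Among 13610 genes with a mean of at least 1 CPM, the profile of log2 CPM over the 6 libraries most like that of Fcgr1 was that of Ifi44 (Pearson's r = 0.998), followed by Gm7609 (0.998) and Rsad2 (0.997), and Ifi44 and Rsad2 are interferon-induced genes. For Fcgr4 the most alike were Dbnl (0.999), Gm8989 (0.996) and Trim12c (0.996). Fcgr1 and Fcgr4 had r = 0.968 with each other, whereas Fcgr1 had r = 0.413 with Fcgr3 and -0.43 with Fcgr2b. These values describe 6 libraries that fall into 2 genotypes, so genes that differ between the genotypes correlate with one another. Of the members that were not called, the most alike genes were Bard1 for Fcgr2b, 0610040J01Rik for Fcgr3 and Trappc12 for Fcgrt.

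Transcription factors of the interferon and myeloid programmes were measured in the same libraries, and 3 of 8 were called higher and 0 lower by edgeR. Among these were Stat2 (log2 fold change 1.27, adjusted p = 0.0193) and Irf9 (0.48, adjusted p = 0.0353), which take part in the response to interferon. Log2 fold changes were 0.30 for Spi1 (adjusted p = 0.126), 0.10 for Irf8, a partner of PU.1 (adjusted p = 0.480), and 1.02 for Irf1 (adjusted p = 0.0730). The calls of Stat2 and Irf9 were lost in some of the 6 fits with 1 library left out, with the highest adjusted p at 0.0926 for Stat2 and 0.143 for Irf9. Of 10 cytokine and anaphylatoxin receptors, Il4ra, the alpha chain of the receptor for interleukin-4, was called higher (0.35, adjusted p = 0.0299, called in 1 of those 6 fits) and 0 lower, and Ifngr1, a chain of the interferon gamma receptor, had 0.17 (adjusted p = 0.379).

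The remaining genes of Fc receptor signalling were called in both directions. Over the 148 tested genes of the pathway lists other than the members and the interferon-response genes, 18 were called higher (12.2%, against 2.25% of all tested genes) and 5 lower (3.38%, against 2.66%) by edgeR, with a median log2 fold change of 0.077 against -0.0023. These counts rest on single libraries. Without MSR1 KO replicate 1 they were 1 and 1, without MSR1 KO replicate 2 they were 3 and 4, and without MSR1 KO replicate 3 they were 8 and 1. Without MSR1 WT replicate 1 they were 1 and 0, without MSR1 WT replicate 2 they were 1 and 2, and without MSR1 WT replicate 3 they were 16 and 3.

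Among the 6 other Fc receptor genes tested, of 13 listed, Trim21, a cytosolic receptor for antibody, was called higher (log2 fold change 0.64, adjusted p = 0.0234 by edgeR). Fcrls, an Fc receptor-like gene, was called lower, at 277 ± 33.1 CPM in MSR1 KO against 422 ± 26.1 CPM in MSR1 WT (-0.61, adjusted p = 0.0199). Of the ITAM adaptors other than Fcer1g, 0 of 3 were called by edgeR, 0 by DESeq2 and 0 at an unadjusted p under 0.05, and Tyrobp (DAP12) was at 638 and 614 CPM. Of 7 lectin-like and other receptors that pair with Fcer1g, 0 were called by edgeR, while 1, Clec4n (Dectin-2), passed an unadjusted p under 0.05 and DESeq2's test, at -0.61 on the log2 scale (adjusted p = 0.0707 by edgeR). Of 10 receptors that pair with Tyrobp, 3 were called higher and 0 lower, namely Sirpb1a (0.87, adjusted p = 0.0234), Sirpb1b (0.61, adjusted p = 0.0477) and Sirpb1c (0.49, adjusted p = 0.0488), which are close paralogs whose reads may be split among them. With single libraries left out, each of the 3 was called in 1 of 6 fits, Trim21 in 2 and Fcrls in 4.

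In the activating pathway, 2 of 34 genes were called higher and 3 lower, with a median of 0.01. Lyn, a Src family kinase, was among those higher, with a log2 fold change of 0.43 (adjusted p = 0.0326 by edgeR). Src itself was lower (-0.88, adjusted p = 0.0267), as were the adaptors Lat2 (-0.60, adjusted p = 0.0202) and Blnk (-0.66, adjusted p = 0.0402). Syk was at 571 CPM in MSR1 KO and 601 CPM in MSR1 WT, with overlapping libraries and a log2 fold change of -0.07. Lyn and Lat2 were called in 2 of the 6 fits with a library left out, and Src and Blnk in 1. Of the 13 restraining signalling genes, Ptprc (CD45) was called higher (0.35, adjusted p = 0.0301, called in 1 of those 6 fits) and 0 lower, and Inpp5d, the phosphatase that acts downstream of Fcgr2b, had 0.16 (adjusted p = 0.252).

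Of 18 receptors with ITIMs, Fcgr2b included, 4 were called higher and 0 lower, with a median of 0.10. Cd300lf, an inhibitory receptor of myeloid cells, had the most marked change of the 4, a log2 fold change of 1.36 (adjusted p = 0.00389 by edgeR), and was called in all 6 fits with 1 library left out. Pecam1 (0.72, adjusted p = 0.0269), Cd72 (0.52, adjusted p = 0.0491) and Clec12a (0.41, adjusted p = 0.0360) were called in 1 of these 6 fits each. Sirpa, which restrains phagocytosis on binding CD47, was at 2017 and 1817 CPM (0.15, adjusted p = 0.210).

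Of 34 genes of the phagocytic actin machinery, 3 were called higher and 1 lower, with a median of 0.03. Actr3, a subunit of the Arp2/3 complex, changed by 0.45 on the log2 scale (adjusted p = 0.0435 by edgeR), Marcks 0.40 (adjusted p = 0.0304) and the GTPase Rhog 0.33 (adjusted p = 0.0393), while Myo10, a myosin of phagocytic cups, had -0.57 (adjusted p = 0.0219). The most abundant genes of this list, Cfl1, Nckap1l and Cdc42, had log2 fold changes of 0.05, 0.02 and 0.05. Myo10 was called in 3 of the 6 fits with a library left out, Actr3 and Marcks in 1 and Rhog in 0. Of 5 NADPH oxidase genes, 0 were called by edgeR, 0 by DESeq2 and 2 passed an unadjusted p under 0.05, among them Cybb, the catalytic subunit, at 1477 and 1197 CPM (0.30, adjusted p = 0.127).

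**Figure D4:**
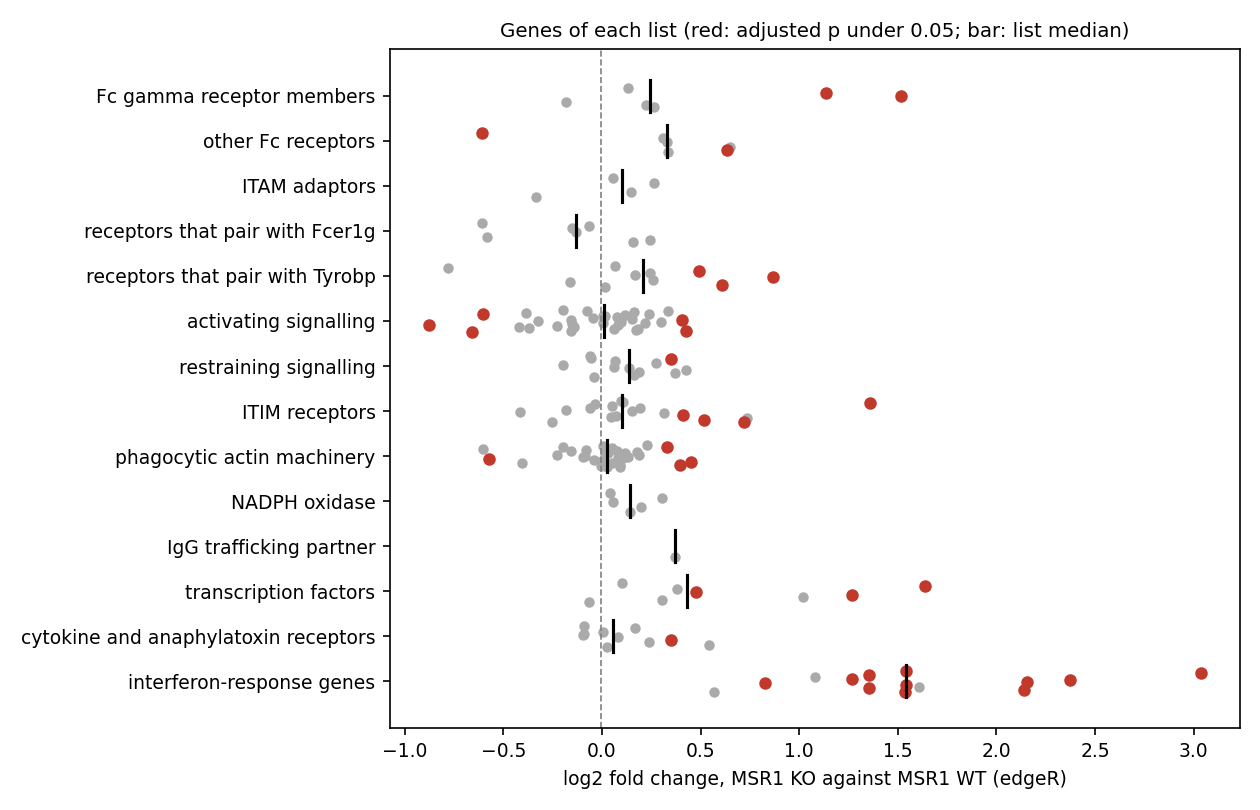
Log2 fold change, MSR1 KO against MSR1 WT from edgeR, of each tested gene in the lists around the Fc receptors. Each point is a gene, red at an adjusted p under 0.05 and grey otherwise, black bars are list medians, and the dashed line is the median of all tested genes (-0.0023). Fcgr1 and Fcgr4 are the red points of the top row, and the interferon-response genes lie farthest to the right, with a median of 1.54.

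The members Fcgr2b, Fcgr4, Fcgr3 and Fcer1g lie on 276 kb of chromosome 1, from 170958617 to 171234365 (GRCm38). Fcgr4 was called higher and the 2 receptor genes on either side of it, Fcgr2b and Fcgr3, were not. Within 100 kb of this segment 31 other genes are annotated and 19 were tested, with a median log2 fold change of 0.04. Of these, 0 were called by edgeR and 0 by DESeq2, and 2 passed an unadjusted p under 0.05, namely Nr1i3, a nuclear receptor (1.25, adjusted p = 0.259), and Pcp4l1 (-0.55, adjusted p = 0.160). Both were low, with 534 and 1055 counts over the 6 libraries.

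**Figure D5:**
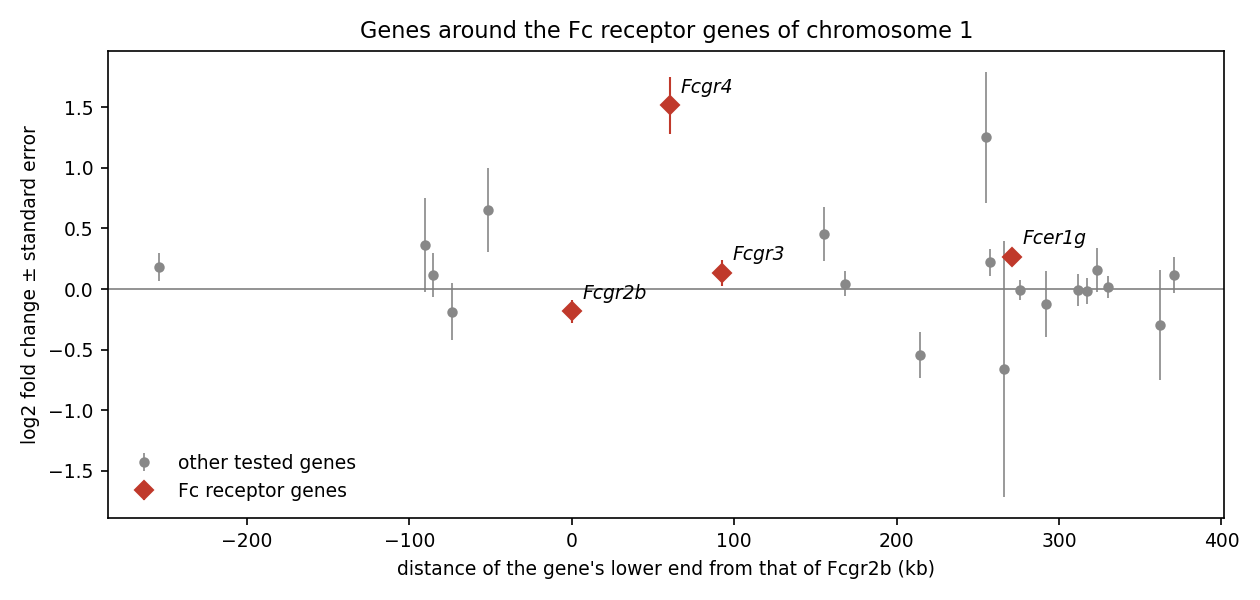
Log2 fold change with its standard error (edgeR) of the tested genes within 100 kb of the Fc receptor segment of chromosome 1, plotted by the distance in kb of each gene's lower end from that of Fcgr2b. Red diamonds are the Fc receptor genes and grey points the 19 other tested genes. Fcgr4 at 1.52 lies above its neighbours Fcgr2b (-0.18) and Fcgr3 (0.13).

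Other cell types that carry Fc receptors were checked by their markers. Natural killer cells express Fcgr3 and Fcer1g, and the 6 listed markers summed to 19.3 to 24.6 CPM in MSR1 KO and 6.18 to 14.5 CPM in MSR1 WT, with Klrb1c called higher (log2 fold change 1.39, adjusted p = 0.0280 by edgeR) and Prf1 at 0 to 12 counts. Of the 5 tested, 3 were higher and 0 lower by the study's definition. The MSR1 KO libraries all lay above the MSR1 WT libraries for 3 of the 5. Neutrophils express Fcgr4 and Fcgr3, and their 9 markers summed to 656 to 1067 CPM in MSR1 KO and 427 to 813 CPM in MSR1 WT. Of these 9, 0 were called by edgeR, 2 passed an unadjusted p under 0.05 and 1 was called by DESeq2. The sum was lowest in MSR1 WT replicate 3 and highest in MSR1 KO replicate 1, and its relation to the level of Fcgr4 was not tested. B cells express Fcgr2b, and most of their markers were near 0, with Blk at 0 counts in every library and Ms4a1 at 0 to 4 counts. Cd79b, a chain of the B cell receptor complex, was the exception, at 624 to 1043 counts per library, with overlapping groups (log2 fold change 0.27, adjusted p = 0.327 by edgeR).

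Mast cell and basophil markers summed to 30.2 to 33.0 CPM in MSR1 KO and 14.6 to 24.0 CPM in MSR1 WT, where Kit was called higher (log2 fold change 1.04, adjusted p = 0.0393 by edgeR) and Mcpt4 and Tpsb2 were at 0 counts. Dendritic cell markers summed to 7.08 to 7.89 CPM against 2.47 to 5.06 CPM, with 0 of 6 called by edgeR, 3 at an unadjusted p under 0.05 and 2 by DESeq2. Stromal markers, which the BMSCs could bring, summed to 1403 to 1911 CPM in MSR1 KO and 1837 to 2299 CPM in MSR1 WT, with Pdgfrb called lower (-0.87, adjusted p = 0.0249). The median log2 fold change of the 9 stromal markers was -0.37, but not all were lower. Thy1 was higher without overlap (1.31, adjusted p = 0.0907 by edgeR), and Lum was higher with overlapping groups (0.46). T cell markers summed to 97.3 to 146 CPM against 90.6 to 140 CPM, nearly all of it Cd4 (114 and 116 CPM), while Cd3e was at 0 to 9 counts. Of the 3 tested, 0 were called by edgeR and 1, Lck, passed an unadjusted p under 0.05 and DESeq2's test, at 6.31 CPM in MSR1 KO and 2.32 CPM in MSR1 WT. The endothelial markers summed to 83.7 to 95.6 CPM against 56.5 to 87.8 CPM. With single libraries left out, Klrb1c and Kit were called in 1 of 6 fits and Pdgfrb in 3. The part of these cells in the levels of the Fc receptor genes was not tested.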

How the data were processed

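Total RNA of 3 MSR1 KO and 3 MSR1 WT macrophage samples was made into libraries with an mRNA kit and sequenced. The submitters' processing notes name fastp 0.17.1, HISAT2 2.1.0, DESeq2 1.18.1 and R 3.4.3, whereas the methods text names TopHat and FPKM values; the counting program, strand setting and genome build are not given in the sources used here. The authors deposited, for each gene, a raw count per library with no normalization. A signal column of the deposited table holds that count scaled by their size factor. The fold changes and p-values of the authors' own comparison were not used. No row lacked a name, and 26 of 27 symbols turned into dates were restored. Of identifiers sharing a symbol (89 symbols), the most counted one was used.

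Counts were filtered (filterByExpr), normalized by TMM and tested by the quasi-likelihood functions of edgeR 4.0.16 (R 4.3.3), with Benjamini-Hochberg adjustment over 16402 genes. Standard errors were derived from the fold change and its F statistic. CPM use TMM library sizes. An exact permutation test of 3 against 3 libraries cannot go below p = 0.1 and was not used. Positions come from GENCODE on GRCm38, in which 52403 of 52550 identifiers were found, 49909 with the same start and end. The aligned coding stretch was found by local alignment (Biopython 1.88). Alternatives were DESeq2 1.42.0 (Wald test, or its size factors passed to edgeR), scaling by library size alone, no filter, a minimum of 10 counts per library, a replicate block and leaving out each library. Same-numbered libraries did not deviate together (correlations of -0.026, 0.019 and -0.0048), so the numbers were not taken to pair the samples.

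The members, lists and motifs were chosen with earlier results of these data known. Named were the members, their 3 most alike genes, tested neighbours, Msr1 and, of each list, up to 5 called genes with the largest change and up to 3 with the highest CPM. Gm38204, Irf1, Thy1, Lum and the markers at or near 0 counts fall outside that rule and were named after their values were seen. Scripts were tested on simulated counts. Protein sequences were not analysed here, and some genes within the naming rule are not reported here.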

Additional observations from a re-analysis of the deposited data

How the results depend on the processing

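The directions of Fcgr1 and Fcgr4 held in every alternative run, with adjusted p from 4.3e-09 to 0.0883 for Fcgr1 and from 1.8e-10 to 0.0902 for Fcgr4. DESeq2's Wald test called 720 genes higher and 848 lower over all genes, against 369 and 436 by edgeR, and no filter gave 237 and 288. Leaving out single libraries gave 18 to 407 higher and 53 to 372 lower, 0 to 2 members called higher, and log2 fold changes of 0.98 to 1.37 for Fcgr1 and 1.24 to 1.72 for Fcgr4. For Fcer1g the log2 fold change was 0.27 with DESeq2's size factors, with its Wald test and with at least 10 counts in every library, each past the threshold, and its adjusted p was above it in the other 9 (0.0640 to 0.179). The summed counts of Fcgr2b and Fcgr3 gave 0.027 where Fcgr2b alone gave -0.18, a value that lies between those of the 2 genes by construction and is no change in the direction of Fcgr2b itself.

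With the replicate number as a block, 59 genes were called higher and 78 lower, and 0 members were called, with log2 fold changes of 1.17 for Fcgr1 (adjusted p = 0.0558) and 1.497 for Fcgr4 (adjusted p = 0.0640) by edgeR, while Fcer1g had an adjusted p of 0.109. Pathway genes other than members went from 18 higher and 5 lower to 1 and 1 under the block. They were 27 and 9 by DESeq2's Wald test, 12 and 4 with no filter, and 1 to 16 and 0 to 4 with single libraries left out. Of 28 counts for single lists, 8 moved by more than 1.5 times under the Wald test, 12 under the block and 4 to 13 with a library left out.

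Of the neighbours on chromosome 1, 1 was called lower within 500 kb, Olfml2b. The activating to inhibitory difference was 1.54 without Fcgr3 in the sum and 0.53 without Fcgr4. The stricter TTCCNGGAA matched in 0 members. The protein comparison was not run. With 3 libraries per genotype, calls near the threshold depend on single libraries.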
